A study of Gallus gallus with 45 samples.

Results

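The 7 classical cadherins CDH1, CDH2, CDH4, CDH6, CDH7, CDH11 and CDH20 were followed through the formation and first emigration of the chick cranial neural crest. They were picked by symbol from the deposited table of scaled read counts, and each symbol had a row, so that all 7 members stand among the 18525 genes tested. Each of the 7 passed the filter on low counts (over 5 reads in 1 or more libraries). RNA was sequenced in bulk from pools of tissue of several untreated wild-type (WT) chick embryos at the midbrain level, in 45 libraries over 12 stages. At Hamburger-Hamilton stages HH5 and HH6 the dissected pieces lay beside the primitive streak. From 1 somite (1ss) to 7ss they were neural plate borders or fold apices, and from 8ss to 10ss they held dorsal neural tube together with newly emigrated crest. Following the study, 1ss to 3ss are called HH7 (12 libraries), 4ss to 6ss HH8 (11 libraries), 7ss to 9ss HH9 (11 libraries) and 10ss HH10 (3 libraries), beside 4 libraries each at HH5 and HH6. Since the dissection itself changed along the series, age and the piece of tissue taken cannot be told apart.

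Classical cadherins are single-pass membrane proteins that hold neighbouring cells together by calcium-dependent binding, mostly to the same or a closely related cadherin on the other cell, and that are anchored to actin inside the cell by catenins. Type I cadherins, such as CDH1, CDH2 and CDH4, give firm epithelial and neural contacts, whereas type II cadherins, such as CDH6, CDH7, CDH11 and CDH20, are found in many mesenchymal and neuronal populations. The neural crest is a textbook case of cadherin switching. The ectoderm carries CDH1 (L-CAM in the chick, the counterpart of E-cadherin), the closing neural tube carries CDH2 (N-cadherin), premigratory crest cells in the chick carry CDH6 (cadherin-6B), which Snai2 is known to repress, and migrating crest cells carry CDH7 and CDH11.

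The deposited counts summed over genes to 15.4 M to 30.5 M reads per library, with a median of 22.9 M. The paper gives higher numbers of uniquely mapped reads per sample. Levels are given as CPM, read counts relative to library size with scaling by the trimmed mean of M-values (TMM), and every value is a mean ± SD over libraries. The 10 neural crest markers summed to 1220–1600 CPM in HH10 libraries, against 200–527 CPM in HH5 libraries, and none of them was at 0 in any group. The neural plate and tube markers (10 genes) were higher as well, at 339–484 CPM at HH10 against 65.9–92.6 CPM at HH5, and the 7 blood and vessel markers overlapped, at 32.3–64.0 CPM against 27.2–38.3 CPM. Other lists were lower, as the 9 epidermis and placode markers summed to 123–220 CPM at HH10 against 899–1350 CPM at HH5, the mesoderm and mesenchyme markers (10 genes) to 41.9–147 CPM against 174–378 CPM, the 5 heart markers to 3.26–7.10 CPM against 77.2–126 CPM, and the 6 endoderm markers to 16.5–29.8 CPM against 165–439 CPM. A pair of libraries stood apart in the endoderm markers. HH6 replicate 1 reached 147 CPM, against 23.3–31.1 CPM in the other HH6 libraries, and 8ss replicate 2 reached 504 CPM, against 5.18–31.1 CPM in the others. In HH9 libraries TTR reached 8851 reads, while SOX17, FOXA2, GATA6, HHEX and CER1 reached at most 7, 49, 26, 128 and 10 reads. The high sum at 8ss was therefore mostly reads of TTR. Results were recomputed without this pair of libraries. The tissue is bulk, so that fewer cells of a type and less RNA per cell cannot be told apart.

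By reads, CDH11 was the leading member at the 9 stages from HH5 to 7ss, and CDH2 was the leading member at 8ss, 9ss and 10ss. No transcript length was used here, so this order is an order of scaled reads and not of transcripts per length, whereas the change of a ratio between stages is free of length. CDH11 gave 52.0% ± 7.91 of the reads of the 7 members at HH5, 68.0% ± 5.04 at 1ss, 47.3% ± 4.32 at 5ss (n = 4 each), 38.4% ± 1.68 at 8ss (n = 3), 24.1% ± 4.52 at 9ss (n = 4) and 27.3% ± 1.1 at 10ss (n = 3). The CDH2 share was 29.5% ± 5.67 at HH5, 14.9% ± 4.99 at 1ss, 29.6% ± 2.52 at 5ss (n = 4 each), 43.7% ± 4.93 at 8ss (n = 3), 61.2% ± 3.93 at 9ss (n = 4) and 57.6% ± 6.12 at 10ss (n = 3). By mean share, CDH11 was highest and CDH2 lowest at 1ss. The shares are parts of one total and so are not independent. The CDH2 share at 1ss (8.77–19.7%) overlapped HH6 (17.9–22.5%) and 2ss (16.2–19.3%). Neither gene passed in the step to 1ss or the step to 2ss, so a turn at 1ss was not shown by test. After 1ss the exchange of the leader in mean shares ran over several stages and was not a single step.

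**Figure D1:**
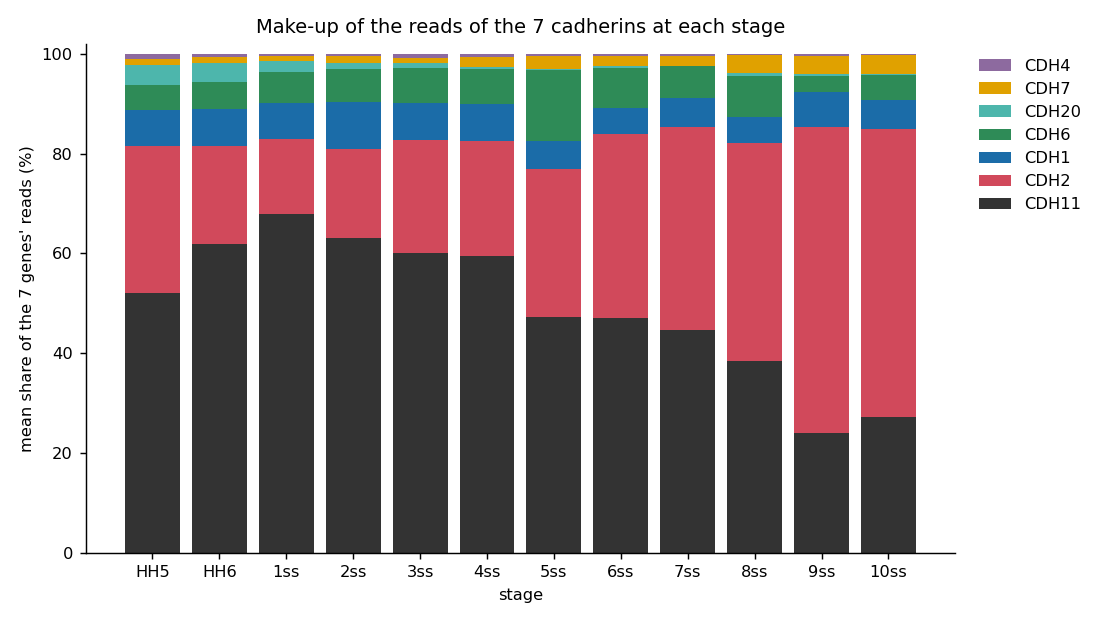
Mean share of the reads of the 7 cadherins taken by each gene (y axis, percent) at each of the 12 stages (x axis, HH5 to 10ss), as stacked bars of scaled reads not divided by transcript length. CDH11 is the largest block up to 7ss and CDH2 from 8ss on, with 61.2% for CDH2 and 24.1% for CDH11 at 9ss.

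Within single libraries the exchange could be placed more finely. CDH11 had more reads than CDH2 in all libraries from HH5 to 6ss, in 2 of 4 libraries at 7ss and in none of the libraries from 8ss to 10ss. The CDH2 to CDH11 read ratio was 0.596, 0.464, 0.410 and 0.897 in the 4 HH5 libraries, and its median was 0.232 at 1ss, 0.392 at 4ss, 0.733 at 6ss, 1.00 at 7ss, 1.17 at 8ss, 2.67 at 9ss and 2.12 at 10ss. The ranges of the 2 genes over libraries overlapped at 7ss and at 8ss, where the order of their levels was therefore not separated by the spread, and they did not overlap at any other stage. With the median over libraries in place of the mean, or without 7ss replicate 3, CDH2 led at 7ss as well.

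**Figure D2:**
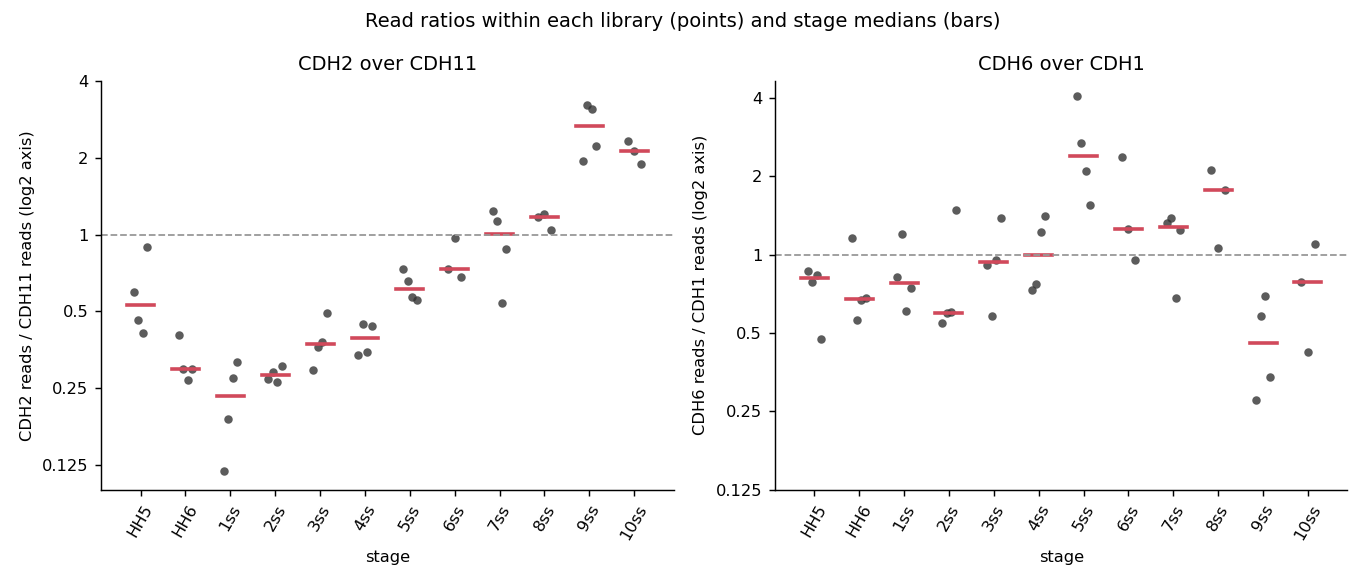
Read ratios within each library (points) and stage medians (bars) for CDH2 over CDH11 (left) and CDH6 over CDH1 (right) at the 12 stages (x axis); the y axes are log2 axes and the dashed line marks a ratio of 1. The CDH2 over CDH11 median is lowest at 1ss (0.232) and highest at 9ss (2.67), and the CDH6 over CDH1 median is highest at 5ss (2.39).

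Below this pair the order was less settled. CDH1 and CDH6 came next by reads from HH5 to 4ss, CDH6 stood before CDH1 from 5ss to 8ss, and CDH1 was again next after the leading pair at 9ss and 10ss. Their ranges overlapped at most stages, but at 5ss CDH6 had more reads than CDH1 in 4 of 4 libraries, with a median ratio of 2.39. CDH2 had more reads than CDH1 in all 45 libraries, with median ratios of 4.02 at HH5, 1.93 at 2ss, 5.94 at 5ss and 12 at 10ss. By reads, the change between these type I cadherins was therefore one of proportion. The ratio was as low as 1.27 in a 2ss library, and without transcript lengths the order of these genes per length is not known. CDH7 passed CDH20 in reads early. The CDH7 to CDH20 ratio was below 1 in all HH5 and HH6 libraries and above 1 in every library from 4ss on, with medians of 0.385 at HH5 and 4.28 at 4ss.

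**Figure D3:**
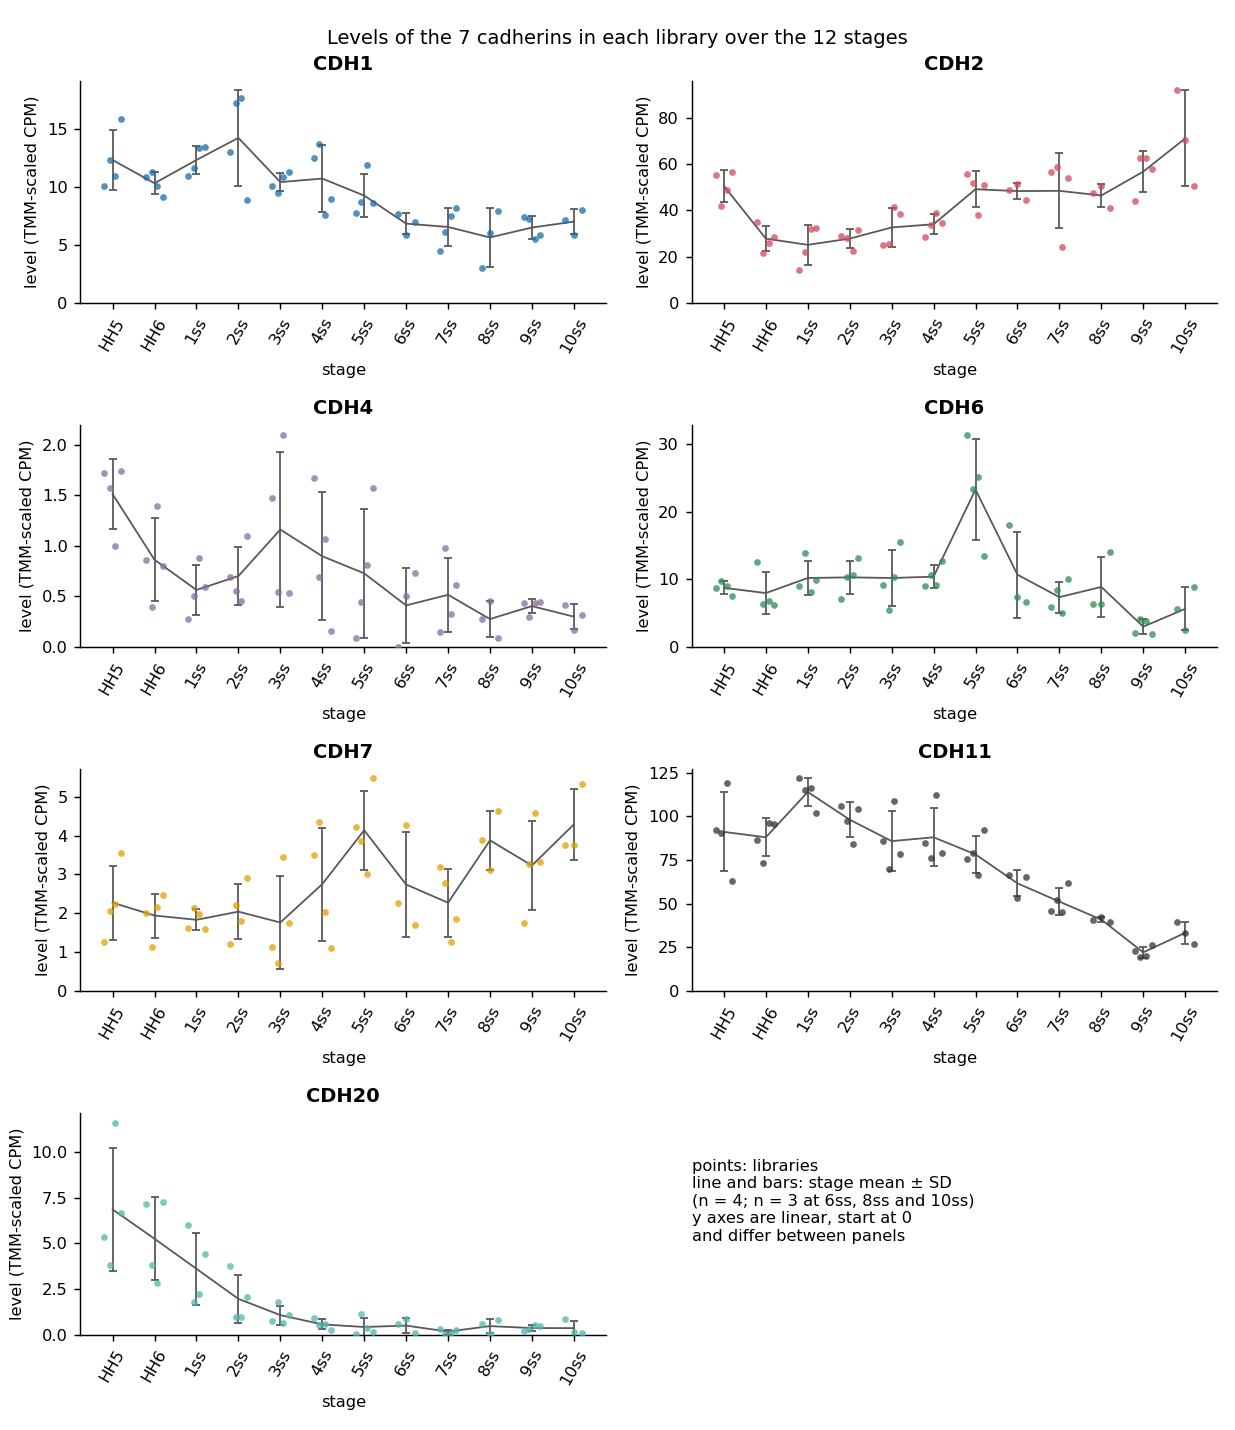
Level of each cadherin (y axis, TMM-scaled CPM, linear from 0 with its own range in each panel) in every library (points) at the 12 stages (x axis), with stage means and SD (line and bars; n = 4, or n = 3 at 6ss, 8ss and 10ss). CDH20 and CDH11 decline along the series, CDH2 dips at HH6 to 4ss and is highest at 10ss, and CDH6 has a peak at 5ss (23.3 CPM).

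Neighbouring groups and the 2 ends of the series were compared with edgeR's quasi-likelihood test on the counts, and a gene was called at an adjusted p below 0.05 over all genes tested and an absolute log2 fold change above 0.75. In HH10 against HH5, 4 of 7 members were called lower and 0 higher, beside 9.8% of all genes lower and 7.2% higher. In HH9 against HH8, 2 of 7 were lower and 0 higher, beside 3.57% and 3.5% of all genes. In HH8 against HH7, 1 member was higher and 1 lower, beside 4.5% and 2.83%. HH6 against HH5 gave 1 lower and 0 higher, beside 0.669% and 0.626% of all genes, shares that depend on single libraries, since leaving out 1 of the 45 moved the counts behind them from 124 to between 20 (without HH6 replicate 4) and 300 lower (without HH6 replicate 1) and from 116 to between 26 and 196 higher (without the same libraries). No member was called in HH7 against HH6, where 0.103% of genes were higher and 0.918% lower, or in HH10 against HH9, where 0.194% were higher and 0.135% lower. At an unadjusted p below 0.05 with edgeR these comparisons gave 1 member each, CDH20 lower and CDH2 higher, and DESeq2 called 0 members in either. The members' median log2 fold change was -0.81 for HH10 against HH5, beside -0.07 over all genes, and -0.62 for HH9 against HH8, beside -0.01.

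Over the 12 single stages, the F-test called 6 of 7 members, beside 43.7% of all genes. CDH4 was the exception (adjusted p = 0.059 with edgeR's quasi-likelihood F-test). Of the 77 member tests over the 11 steps between consecutive stages, 3 passed, beside 0.376% of gene and step pairs over all genes. They were CDH2 in HH6 against HH5, a step in which 1.35% of genes were lower, and CDH6 and CDH11 in 9ss against 8ss, in which 0.556% were lower.

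**Figure D4:**
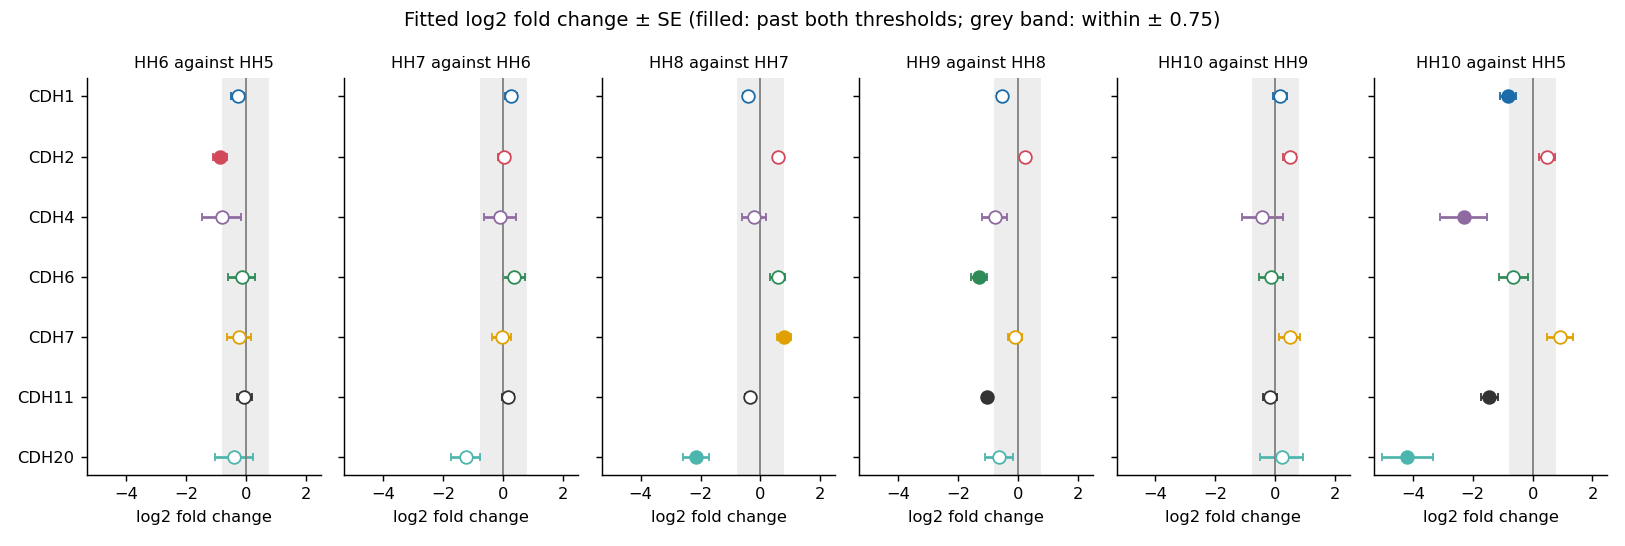
Fitted log2 fold change ± SE (x axis) of the 7 cadherins (rows) in the 6 group comparisons (panels, the group named first over the other), with filled points for genes past both thresholds and a grey band for changes within 0.75. CDH20 has the largest fall in HH10 against HH5 (-4.19), and CDH6 and CDH11 are the filled points in HH9 against HH8.

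CDH2, the N-cadherin of the neural plate and tube, dipped and recovered. It had 34.8, 21.8, 26.0 and 28.6 CPM in the HH6 libraries, against 55.1, 41.9, 48.6 and 56.6 CPM in the HH5 libraries. The ranges did not overlap. CDH2 was 1.82-fold lower at HH6 (log2 fold change -0.86, SE 0.24, adjusted p = 0.048 with edgeR's quasi-likelihood test). This call was narrow. It was lost without any one of the 4 HH5 libraries or HH6 replicates 2, 3 or 4, and also without 17 other libraries taken singly, and the adjusted p ran between 0.021 and 0.20 over the 45 fits. Without HH6 replicate 1, which stood apart in endoderm markers, the log2 fold change was -1.01 (adjusted p = 0.021 with the same edgeR test). The step test of the same stages gave an adjusted p of 0.025 with edgeR and was lost without HH5 replicates 1 or 4 or HH6 replicates 2, 3 or 4. Endoderm markers (23.3–147 CPM at HH6 against 165–439 CPM at HH5) moved with this fall, while neural plate and tube markers overlapped (75–111 CPM at HH6 against 65.9–92.6 CPM at HH5). At HH5 most of the endoderm sum was TTR (209 ± 112 CPM, against 22.8 ± 40.3 CPM at HH6, n = 4 each), which was not called. HHEX was the one endoderm marker called lower (-2.15, SE 0.51). The part of these markers in the CDH2 fall was not tested.

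After HH6 the level of CDH2 stayed at stage means of 25.1 to 34.0 CPM up to 4ss and of 46.4 to 56.7 CPM between 5ss and 9ss. HH8 libraries ranged between 28.7 and 55.5 CPM with a median of 44.4, against 14.4 to 41.3 CPM with a median of 28.5 in HH7 libraries. The difference of 0.60 on the log2 scale (SE 0.14) had an adjusted p of 0.0022 with edgeR's quasi-likelihood test, but it lay below the fold threshold and is not counted among the calls. Neural plate and tube markers moved with it, with sums of 147–397 CPM (median 197) in HH8 libraries against 86.0–151 CPM (median 120) in HH7 libraries, and they stood at 215–536 CPM in HH9 libraries, where CDH2 took the lead in reads. Crest markers were also higher in HH8 than in HH7 libraries (635–2070 against 231–458 CPM). Epidermis and placode markers were lower (121–185 against 192–771 CPM). The part of these lists in the CDH2 level was not tested. At 10ss the libraries held 91.9, 70.5 and 50.5 CPM, the widest spread of any stage for this gene. Neither HH10 against HH9 (log2 fold change 0.48, SE 0.21, adjusted p = 0.39) nor HH10 against HH5 (0.49, SE 0.26, adjusted p = 0.17) passed with the edgeR test, and the HH10 and HH5 ranges overlapped. At 7ss, replicate 3 had 24.2 CPM while the other libraries had 54.1 to 58.7 CPM. No comparison or step after HH6 passed both thresholds for CDH2.

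CDH1, the epithelial cadherin of the early ectoderm, declined slowly. It had 7.10, 5.85 and 8.03 CPM in the HH10 libraries, against 10.1, 12.3, 10.9 and 15.8 CPM in the HH5 libraries, with no overlap. The log2 fold change was -0.81 (SE 0.27, adjusted p = 0.026 with edgeR's quasi-likelihood test), a level 1.76-fold lower at HH10. The call was lost without HH5 replicate 4 (-0.67, adjusted p = 0.092), 10ss replicate 1 (-0.81, 0.066) or 10ss replicate 2 (-0.70, 0.12), all with the edgeR test. Most of the decline lay in the middle of the series. HH8 was lower than HH7 by a log2 fold change of -0.43 (adjusted p = 0.036) and HH9 was lower than HH8 by -0.54 (adjusted p = 0.010) in the edgeR test, both under the fold threshold. CDH1 was never absent, as its lowest library still held 64 reads, and stage means between 6ss and 10ss were 5.64 to 7.00 CPM. The epidermis and placode markers given above were lower in the same comparison, and their part in the CDH1 level was not tested.

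CDH4 (R-cadherin, known from the retina and brain) was the least read member, with 0 to 46 reads per library. HH10 libraries held 12, 4 and 6 reads (0.418, 0.167 and 0.311 CPM), against 45, 36, 26 and 46 reads (1.72, 1.57, 1.00 and 1.74 CPM) in HH5 libraries. The groups did not overlap. The log2 fold change of -2.30 had an SE of 0.78 (adjusted p = 0.027 with edgeR's quasi-likelihood test), and the call was lost without 10ss replicate 2 (-2.02, adjusted p = 0.12) or 10ss replicate 3 (-2.33, 0.077). Between these ends its libraries scattered, for example 0.535 to 2.09 CPM at 3ss. With so few reads, differences between neighbouring stages were not detectable.

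CDH11, a type II cadherin of mesenchyme and of crest cells, had the lowest p of the members for change over the 12 stages (adjusted p = 1.7e-14 with edgeR's quasi-likelihood F-test). Its stage means were 91.1 ± 22.6 CPM at HH5, 88.0 ± 10.8 at HH6 and 114 ± 8.16 at 1ss (n = 4 each), and from there they declined through 78.2 ± 10.7 at 5ss (n = 4) and 40.8 ± 1.35 at 8ss (n = 3) to a low at 9ss. The 9ss libraries held 22.6, 19.4, 20.0 and 26.0 CPM, against 40.8, 42.2 and 39.5 CPM in the 8ss libraries. Every 9ss library lay below every 8ss library. This step (log2 fold change -0.89, SE 0.17, adjusted p = 0.0080 with edgeR) stayed called without each of the 45 libraries in turn. At 10ss the libraries held 39.7, 33.2 and 26.8 CPM, all above the 9ss libraries. That step was 0.59 (SE 0.17) with an adjusted p of 0.15 in edgeR, while DESeq2 gave 0.61 with an adjusted p of 0.039, and without the libraries numbered 4 edgeR gave 0.71 with an adjusted p of 0.041.

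Between groups, CDH11 ranged between 19.4 and 61.8 CPM in HH9 libraries with a median of 40.8, against 53.0 to 112 CPM with a median of 75.9 in HH8 libraries. A single HH9 library, 7ss replicate 4, reached the HH8 range. The log2 fold change was -1.03 (SE 0.15, adjusted p = 3.2e-06 with edgeR's quasi-likelihood test). For HH10 against HH5 it was -1.45 (SE 0.28, adjusted p = 0.00012), with 26.8–39.7 CPM at HH10 and 63.1–119 CPM at HH5. In that comparison mesoderm and mesenchyme markers (41.9–147 against 174–378 CPM) and epidermis and placode markers (123–220 against 899–1350 CPM) were lower and crest markers higher (1220–1600 against 200–527 CPM). In 9ss against 8ss, crest markers were lower without overlap (1000–1610 against 1620–1990 CPM), although over the whole groups their ranges overlapped (1000–2290 CPM in HH9 against 635–2070 CPM in HH8). Mesoderm and mesenchyme markers overlapped in that step (37.7–87.2 CPM at 9ss against 35.8–62.6 CPM at 8ss). The part of these markers in the CDH11 level was not tested.

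CDH6, the premigratory crest cadherin of the chick, was nearly level up to 4ss and then peaked. The 5ss libraries held 31.4, 23.4, 25.1 and 13.4 CPM, against 9.09, 10.6, 9.21 and 12.7 CPM in the 4ss libraries. Each 5ss library was above each 4ss library. The step of 1.17 on the log2 scale (SE 0.35) had an adjusted p of 0.17 with edgeR's quasi-likelihood test and did not pass. The 6ss libraries held 18.1, 7.43 and 6.68 CPM, the first of them still above every 4ss library. This step of -1.12 (SE 0.38, adjusted p = 0.22 with edgeR) did not pass either. The fall from HH8 to HH9 did pass. Stage means were 10.4, 23.3 and 10.7 CPM at 4ss, 5ss and 6ss, and 7.37, 8.88 and 3.00 CPM at 7ss, 8ss and 9ss, so the HH8 level held the 5ss peak. HH9 libraries ranged between 1.98 and 14 CPM with a median of 5.93, against 6.68 to 31.4 CPM with a median of 12.7 in HH8 libraries, a log2 fold change of -1.29 (SE 0.27, adjusted p = 0.00056 with edgeR).

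Between single stages, the step of CDH6 that passed was the one to 9ss, which need not hold the whole fall. The 9ss libraries held 2.06, 4.17, 3.81 and 1.98 CPM, against 6.28, 6.35 and 14 CPM at 8ss. The groups were separate. The step was -1.56 (SE 0.38, adjusted p = 0.037 with edgeR), and it was lost without 8ss replicate 3 (-1.07, adjusted p = 0.29), 9ss replicate 1 (-1.42, 0.17) or 9ss replicate 4 (-1.41, 0.11). Crest markers were lower in the same step without overlap (1000–1610 CPM at 9ss against 1620–1990 CPM at 8ss), and neural plate and tube markers had their median at 418 CPM at 9ss against 282 CPM at 8ss. Their part in the fall was not tested. At 10ss the libraries spread over 5.61, 2.47 and 8.81 CPM. HH10 and HH5 were not told apart for this gene (log2 fold change -0.64, SE 0.48, adjusted p = 0.38 with edgeR).

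CDH7, the cadherin of migrating crest, was higher in HH8 than in HH7, at a modest level, and did not rise steadily. Stage means were 2.27 CPM at HH5, 4.14 at 5ss, 2.27 at 7ss and 4.29 at 10ss. HH9 against HH8 gave a log2 fold change of -0.09 (SE 0.24, adjusted p = 0.86 with edgeR's quasi-likelihood test). HH8 libraries ranged between 1.11 and 5.48 CPM with a median of 3.51, against 0.720 to 3.46 CPM with a median of 1.77 in HH7 libraries. The ranges overlapped. The log2 fold change was 0.79 (SE 0.24, adjusted p = 0.021 with edgeR's quasi-likelihood test), just past the fold threshold. It was 0.70 to 0.75, under or at that threshold, without any one of 2ss replicate 1, 3ss replicates 1 or 2, 4ss replicate 2, 5ss replicates 1 or 4, or 6ss replicate 2. Crest markers were higher in the same comparison (635–2070 CPM in HH8 against 231–458 CPM in HH7), and their part in it was not tested. HH10 libraries held 3.76, 3.76 and 5.34 CPM, against 1.26, 2.05, 2.24 and 3.56 CPM in HH5 libraries. These did not overlap, but the log2 fold change of 0.91 (SE 0.43) had an adjusted p of 0.13 with edgeR. The change of CDH7 over all stages (adjusted p = 0.039 with edgeR's F-test) was lost in 12 of the 45 fits that leave out a library. Even at 10ss CDH7 had a median of 0.671 of the CDH6 reads, and it was ahead of CDH6 in 2 of 4 libraries at 9ss and 1 of 3 at 10ss.

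CDH20, a type II cadherin close to CDH7 and known from motor neurons, was an early gene here. HH10 libraries held 24, 3 and 2 reads (0.836, 0.125 and 0.104 CPM), against 140, 88, 302 and 176 reads (5.34, 3.83, 11.6 and 6.66 CPM) in HH5 libraries. No library of one group reached the other. The log2 fold change was -4.19 (SE 0.85, adjusted p = 2e-04 with edgeR's quasi-likelihood test), an 18.2-fold lower level, and it lay between -5.81 and -3.79 over the 45 fits without a library. The decline was gradual, with stage means of 5.26 CPM at HH6, 3.61 at 1ss, 1.96 at 2ss, 1.07 at 3ss and 0.561 at 4ss. HH8 libraries ranged between 0.0431 and 1.12 CPM with a median of 0.531, against 0.638 to 6.01 CPM with a median of 1.80 in HH7 libraries (log2 fold change -2.15, SE 0.43, adjusted p = 0.00031 with edgeR). From 5ss on, 8 libraries held 3 reads or fewer, too few to order the later stages. Epidermis and placode markers moved with this fall, with sums of 121–185 CPM in HH8 libraries against 192–771 CPM in HH7 libraries, and so did mesoderm markers (31.9–126 against 120–386 CPM). Their part in it was not tested.

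The genes whose pattern over the 45 libraries was most like each member were sought among 7835 genes with a symbol and a mean of at least 5 CPM, by Pearson's r of log2 CPM. The libraries share stages, so that r is a description. CDH11 lay nearest to FGFR2 (r = 0.91), a receptor for fibroblast growth factors, NOXO1 (0.91) and CLDN1 (0.89), a tight junction claudin. CDH20 lay nearest to GATA5 (0.88) and GATA3 (0.87), transcription factors of early mesendoderm and non-neural ectoderm, and to AGRP (0.87). CDH1 lay nearest to MPZL3 (0.82), RAB2B (0.80) and TSPAN1 (0.79), and CDH2 to GNAQ (0.77), LECT1 (0.74) and WNT3A (0.73), a Wnt ligand of the dorsal neural tube. For CDH6 they were TP53INP1 (0.79), PGM3 (0.78) and ANLN (0.78), for CDH7 CERS4 (0.68), NAPB (0.61) and SATB1 (0.60), and for the sparsely read CDH4 ACAD9, KCNAB1 (0.64 each) and SERINC2 (0.63).

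The 7 members are not the only classical cadherins in this tissue. With 17 type I and type II genes ranked by reads, again without a transcript length, CDH3 (K-CAM in the chick, a neighbour of CDH1 in the genome) had the highest mean at every stage from HH5 to 9ss and CDH2 had it at 10ss. This lead was often narrow, as CDH3 led in 2 of 4 libraries each at HH5, 3ss, 4ss and 5ss (81.2 CPM, beside 78.2 CPM for CDH11 at 5ss) and in 2 of 3 at 8ss, while it led in all libraries at 6ss, 7ss and 9ss, and CDH2 led in 2 of 3 libraries at 10ss. CDH3 had means of 101 ± 23.3 CPM at HH5, 165 ± 78.3 at 2ss, 70.6 ± 10.8 at 9ss (n = 4 each) and 50.8 ± 7.20 at 10ss (n = 3). Its row has no symbol in the deposited files and was named through its gene identifier in RefSeq. CDH3 was called in none of the 6 comparisons (adjusted p = 0.050 with edgeR for HH10 against HH5, log2 fold change -0.99). CDH10, a type II cadherin of the nervous system, came after CDH3 and CDH11 by reads at HH5 (76.6 ± 20.1 CPM, n = 4). At 7ss it came after CDH3 alone, at 62.6 ± 8.61 CPM, beside 51.1 ± 7.78 for CDH11 and 48.4 ± 16.2 for CDH2 (n = 4 each). From HH5 to 7ss the mean of CDH10 was above that of CDH2 at every stage but 2ss, narrowly so at 1ss and 3ss. At 5ss it was 59.5 ± 8.31 CPM, against 49.1 ± 7.75 CPM for CDH2 (n = 4 each). CDH10 was higher in HH8 than in HH7 (log2 fold change 0.89, SE 0.21, adjusted p = 0.0021 with edgeR).

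**Figure D5:**
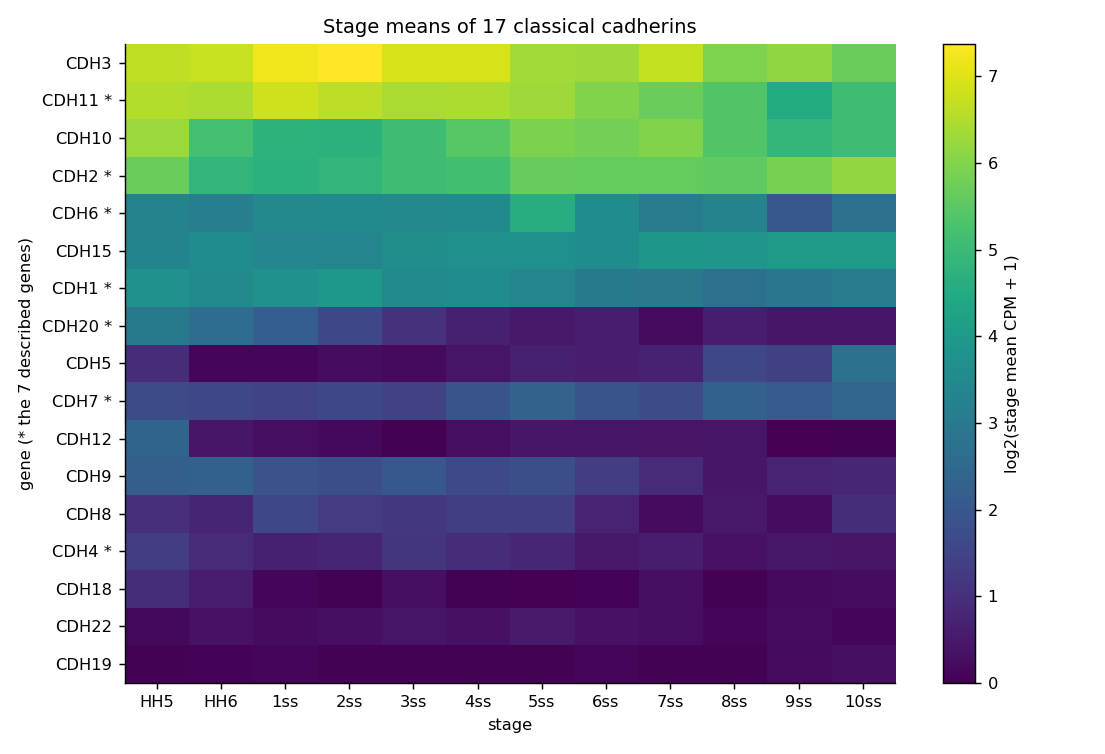
Stage means of 17 classical cadherins (rows, ordered by their highest stage mean; asterisks mark the 7 described genes) at the 12 stages (x axis), as log2 of mean CPM + 1 in color, not divided by transcript length. CDH3, CDH11, CDH10 and CDH2 are the 4 brightest rows, and CDH2 is the brightest at 10ss.

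Of the 12 type II cadherins tested, 4 were called lower and 1 higher in HH9 against HH8, beside 3.57% and 3.5% of all genes. Their median log2 fold change was -0.57. Beside the members CDH6 and CDH11 these were CDH8 (log2 fold change -2.47, SE 0.42) and CDH9 (-1.66, SE 0.50), both of neurons. Both were sparsely read. CDH8 had 0.239 ± 0.251 CPM in HH9 against 1.32 ± 0.593 CPM in HH8, and CDH9 0.652 ± 0.523 against 2.06 ± 1.37 CPM (n = 11 each). CDH8 stood at 0.961 ± 0.927 CPM at HH10 (n = 3), so a lasting fall was not shown. CDH5, the endothelial VE-cadherin, was higher (1.59, SE 0.41). CDH5 had 5.72 ± 3.17 CPM at HH10 (n = 3), against 0.898 ± 0.488 CPM at HH5 (n = 4), and the 7 blood and vessel markers, CDH5 among them, summed to 32.3–64.0 CPM in HH10 libraries against 9.09–34.9 CPM in HH9 libraries. In HH10 against HH5, 4 type II genes, among them the members CDH11 and CDH20, were lower and 1 higher, beside 9.8% and 7.2% of all genes. The median was -0.95, or -1.22 with genes near 0 reads set at their bound. CDH10 fell by 1.22 on the log2 scale (SE 0.39), and CDH12 had at most 2 reads in any HH10 library, against 4.23 ± 1.76 CPM at HH5 (n = 4), a level at least 32.9-fold lower against a floor of 3 reads per library. At HH6, CDH5 was at least 7.26-fold lower than at HH5 by the same floor. Of 5 type I genes, the members CDH1 and CDH4 were lower in HH10 against HH5 and none was higher, beside 9.8% and 7.2% of all genes (median -0.81). None was called in HH9 against HH8 with edgeR (1 higher and 1 lower at an unadjusted p below 0.05, median -0.24). The row named CDH15 carries the description of another gene. It was kept among the 5 type I genes, in their medians and among the classical cadherins ranked by reads. In HH9 against HH8 it was the 1 type I gene higher at an unadjusted p below 0.05 (log2 fold change 0.29, adjusted p = 0.039 with edgeR). Without this row, no type I gene was higher there at that p. The row is not read further.

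Outside the classical groups, 17 other cadherins of 22 listed were tested. Of all genes, 9.8% were lower and 7.2% higher in HH10 against HH5. The shares were 2.83% and 4.5% in HH8 against HH7, and 3.57% and 3.5% in HH9 against HH8. In HH10 against HH5, CDH13, a cadherin without a cytoplasmic tail (log2 fold change -1.11), desmoglein DSG2 (-0.90) and protocadherin PCDH1 (-2.53) were lower, and protocadherins PCDH8 (1.35) and PCDH18 (1.62) were higher (median -0.32). PCDH8 was also higher (0.81) and PCDH1 lower (-1.44) in HH8 against HH7. In HH9 against HH8, the giant cadherin FAT1 was lower (-0.96), and CDH17, called higher, had at most 16 reads in an HH9 library and 1 read in an HH8 library. CDH13 was already lower in HH6 against HH5 (-1.33, SE 0.30), the step in which CDH2 fell.

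The catenins link cadherins to actin. Of 10 catenin genes, 1 was called higher and 0 lower in HH10 against HH5, beside 7.2% and 9.8% of all genes. It was the neural alpha-catenin CTNNA2, at 32.2 ± 10.7 CPM in HH10 (n = 3) and 15 ± 2.40 CPM in HH5 (n = 4), a log2 fold change of 1.1 (SE 0.23). None was called in any other comparison with edgeR, although 3 were higher and 3 lower in HH8 against HH7, and 3 lower in HH9 against HH8, at an unadjusted p below 0.05. Part of these also had an adjusted p below 0.05 with edgeR and lay under the fold threshold. They were CTNNA2 (0.54, adjusted p = 0.0026), CTNNB1 (0.3, 0.014) and JUP (-0.27, 0.045) in HH8 against HH7. In HH9 against HH8 they were CTNNB1 (-0.34, 0.0058) and CTNND2 (-0.4, 0.014). The medians were -0.20 in HH10 against HH5 and -0.12 in HH9 against HH8. Of 11 proteases known to cut cadherins or matrix, ADAM12 was lower at HH10 than at HH5 (-2.94, SE 0.45) and MMP2 higher (1.51, SE 0.44), with a median of -0.01. In HH9 against HH8, MMP2 (1.09, SE 0.25) and ADAM33 (1.26, SE 0.31) were higher, beside 3.5% of all genes, with a median of 0.11.

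The transcription factors that drive the epithelial to mesenchymal transition (EMT) changed in HH8 against HH7, where CDH7 rose and CDH20 fell. Of 11 tested, 6 were higher and 2 lower, beside 4.5% and 2.83% of all genes (median log2 fold change 0.76, beside 0.02 over all genes). Among the EMT factors, SNAI2, SOX9, SOX10, ETS1 and FOXD3 also belong to the 10 neural crest markers summed above, so the lists are not independent. SNAI2, the known repressor of CDH6, had 372 ± 190 CPM in HH8 (n = 11), against 78.5 ± 28.2 CPM in HH7 (n = 12), a log2 fold change of 2.24 (SE 0.25). SOX9 (3.02) and SOX10 (2.61), which specify the crest, were also higher, and TWIST1 (-2.07), expressed in mesoderm as well, was lower. CDH6 had 15.2 ± 8.20 CPM in HH8 against 10.2 ± 2.87 CPM in HH7 (log2 fold change 0.57, SE 0.26, adjusted p = 0.13 with edgeR) and was not called. Crest markers summed to 635–2070 CPM in HH8 libraries against 231–458 CPM in HH7 libraries. In HH9 against HH8, where CDH6 and CDH11 fell, SOX10 (2.13, SE 0.33) and ETS1 (1.14, SE 0.29) were higher and ZEB2 (-0.75, SE 0.17) was lower (median 0.02). SNAI2 was not called in that comparison. The tissue is bulk, and whether SNAI2 acted on CDH6 in these cells was not tested.

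In HH10 against HH5, 6 EMT factors were higher and 1 lower, beside 7.2% and 9.8% of all genes (median 1.37). SOX10 had 358 ± 84.3 CPM at HH10 (n = 3), against 5.65 ± 2.78 CPM at HH5 (n = 4), a log2 fold change of 5.98 (SE 0.67). SNAI2 (2.23), SOX9 (2.00), ZEB1 (1.37), ZEB2 (0.96) and FOXD3 (2.61) were higher and TWIST1 (-2.53) was lower. ZEB2 was also the single factor called in HH6 against HH5 (1.08, SE 0.29).

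Epithelial junction genes fell alongside CDH1. Of 16 tested of 24 listed, 11 were lower and 0 higher in HH10 against HH5 with edgeR, beside 9.8% and 7.2% of all genes. At an unadjusted p below 0.05 with edgeR, 14 were lower and 0 higher, and the median was -1.61. The keratin KRT18 had 10.9 ± 2.97 CPM at HH10 (n = 3), against 117 ± 25.5 CPM at HH5 (n = 4), a log2 fold change of -3.42 (SE 0.37), and the tight junction genes CLDN3 (-3.35), CGN (-2.77) and CLDN1 (-2.01) were lower as well. CGN was the only gene of the list lower in HH7 against HH6 (-1.02), beside 0.918% of all genes. KRT18 (-1.25), CLDN3 (-0.84) and CGN (-0.76) were among 4 lower in HH8 against HH7, beside 2.83% of all genes. In HH9 against HH8, where CDH11 fell, CLDN1 was the only gene called, beside 3.57% of all genes lower and 3.5% higher. It had 748 ± 238 CPM in HH9 against 1700 ± 436 CPM in HH8 (n = 11 each, log2 fold change -1.18, SE 0.14). The adjusted p was below 0.05 with edgeR for each listed gene said to be higher or lower. The sum of epidermis and placode markers was lower without overlap in HH10 against HH5 and in HH8 against HH7 (121–185 against 192–771 CPM). It overlapped in HH7 against HH6 (192–771 against 505–1140 CPM). In HH9 against HH8, where CLDN1 fell, it overlapped with nearly the same median (136 against 141 CPM). The part of these markers in the falls was not tested.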

How the data were processed

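The members, gene lists and tests were chosen with earlier results of these data known. The authors mapped paired-end reads from an unstranded kit with STAR (2.7.2a and the build GRCg6a per the submitters' processing notes) and deposited a table of counts, whole reads per gene without normalization, for 24356 genes, and the same counts for the 18525 genes that exceeded 5 reads in 1 or more libraries. They also deposited a scaled signal, which was checked to be the CPM of these counts under the trimmed mean of M-values. Without strand, reads of overlapping antisense genes are not separated.

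Groups came from the labels, which name the stage 1ss HH7. Titles and descriptions number the 10ss libraries differently, and the titles were used. The labels do not say which of 2 runs held which library, and nothing names separate animals behind each pool, so p-values measure the spread between pools. Symbols came from the files for 12245 genes and through RefSeq identifiers for 1769, with 4511 unnamed.

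Tests used R 4.3.3 with edgeR 4.0.16 (glmQLFit, glmQLFTest, Benjamini-Hochberg over all genes), fitted once over 6 groups and once over 12 stages, and tested on simulated data. Fold changes are of the fitted counts, and log2 CPM had a prior count of 2. Named genes were the 7 members, the 3 genes most like each, and called list genes: per list and comparison up to 4 with the largest change and a mean of 5 CPM or more, plus all cadherins, catenins, EMT factors and proteases called in HH9 against HH8 or HH10 against HH5. CDH3, CDH10 and CDH15 by level were named after their values were seen. Alternatives were DESeq2 1.42.0, other size factors and filters, other groupings, a test against a minimum fold, replicate blocks and fits without libraries. Counting error limits CDH4 and CDH20, with as few as 0 and 1 reads in a library.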

Additional observations from a re-analysis of the deposited data

Results flagged for a closer look

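Over the members and stages, 63 groups of 4 libraries were examined, and in 3 of them the lowest or highest library lay far from the rest, by Dixon's test at 95%. Chance alone flags about 1 in 20 such groups. At 7ss, CDH2 in replicate 3 had 24.2 CPM, while the other libraries had 54.1 to 58.7 CPM. At HH6, CDH6 in replicate 1 had 12.6 CPM, while the others had 6.24 to 6.76 CPM. The same library had the highest endoderm marker sum of its stage (147 CPM). At 9ss, CDH4 in replicate 2 had 0.295 CPM, while the others had 0.433 to 0.445 CPM, a difference between 8 reads and 10 or 11 reads that lies within counting error.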

How the results depend on the processing

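No member reversed its direction where it was called. Tested against a minimum log2 fold change of 0.75 (glmTreat), 0 members were called in HH6 against HH5 and in HH9 against HH8, 1 in HH8 against HH7 (CDH20) and 2 in HH10 against HH5 (CDH11 and CDH20). The call in HH6 against HH5 went to 0 without a filter on low counts and without the libraries numbered 4, and the fit over 12 stages left 1 member in HH8 against HH7, as the log2 fold change of CDH7 was 0.74. With DESeq2 the change over the 12 stages was called for 7 members and 4 steps passed. Leaving out each of the 45 libraries in turn gave 0 to 1 members in HH6 against HH5, 1 to 2 in HH8 against HH7, 2 in HH9 against HH8, 2 to 4 in HH10 against HH5, 2 to 3 steps and 5 to 7 members over the 12 stages, and the leading cadherin by reads stayed the same at 11 to 12 stages. Without 10ss replicate 2, HH10 against HH5 kept 2 calls.

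Without the libraries numbered 4, CDH1 (-0.66, adjusted p = 0.11) and CDH4 (-2.22, adjusted p = 0.055) lost their calls in HH10 against HH5 and CDH7 gained one (1.22, adjusted p = 0.047), all with edgeR. With these libraries kept and an edgeR term for those from HH5 to 7ss, CDH1 (-0.8, adjusted p = 0.027) and CDH4 (-2.26, 0.029) stayed called. CDH7 (0.97, 0.1) was not called in that fit, and CDH2 stayed called in HH6 against HH5 (-0.86, 0.034). Without HH6 replicate 1 and 8ss replicate 2, an alternative chosen after seeing the data, the same numbers of members were called in every comparison. Over all genes, glmTreat left 782 lower and 490 higher calls in HH10 against HH5 (1815 and 1334 as reported) and 88 lower and 99 higher in HH9 against HH8 (661 and 648). Apart from fits without a single library, calls over all genes ranged from 0 to 287 lower in HH6 against HH5 (124 as reported) and from 0 to 44 higher in HH7 against HH6 (19 as reported). Leaving out each library in turn gave 20 to 300 lower and 26 to 196 higher (116 as reported) in HH6 against HH5, 21 to 212 lower (170) and 2 to 24 higher (19) in HH7 against HH6, 2 to 37 lower (25) and 5 to 47 higher (36) in HH10 against HH9, and moved no other comparison's count by over 1.5 times.

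Libraries with the same replicate number did not deviate together, with a median correlation of 0.0361, 0.0239 and 0.00575 for numbers 1, 2 and 3, except those numbered 4 from HH5 to 7ss (0.356 over 28 pairs). With the replicate block the members called were 1, 0, 2, 2, 0 and 4 in the 6 comparisons in the order of time with HH10 against HH5 last, 3 over the steps and 6 over the 12 stages, the same numbers as without it. Ranking the members by reads per transcript length was not run. CDH4 and CDH20, with as few as 0 and 1 reads in a library, are limited by depth.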
